A study of Homo sapiens with 6 samples.

Results

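The nuclear pore and the factors that carry cargo through it were followed as 38 genes, chosen by name from the 78304 genes of the deposited table. They comprise 26 nucleoporins, the proteins of the pore, and 12 transport factors. Each symbol matched a single row, and all 38 reached the mean of 1 TPM over the 6 libraries that was required for testing, as did 14275 genes in all. TPM are transcript abundances corrected for transcript length and scaled to the same sum in every library. Huh7, a long-established human liver cancer cell line labelled wild type, was seeded 24 h before treatment and then kept for 24 h with 16'-DEC (3 libraries) or with the vehicle DMSO (3 libraries). Only the code name of the compound is given, without a dose, and cells without vehicle were not analysed here.

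Nuclear pores are the channels of the nuclear envelope. Rings of scaffold nucleoporins, anchored by transmembrane nucleoporins, hold a central channel of proteins rich in phenylalanine-glycine repeats, with filaments on the cytoplasmic face and a basket on the nuclear face. Importins bind cargo in the cytoplasm and release it in the nucleus when they meet the GTP-bound form of the small GTPase RAN, while exportins need RAN-GTP to bind cargo and let it go where RANGAP1, at the cytoplasmic face, triggers GTP hydrolysis.

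With 16'-DEC, 27 of the 38 genes fell, 2 rose and 9 did not pass the test (limma on log2(TPM + 1), Benjamini-Hochberg adjusted p under 0.05 over all tested genes). Over all tested genes 48.9% were called lower and 22.7% higher, that is 71.5% in either direction. These shares are the ones to set beside the counts of each group of genes below. The median change of the 38 was -0.63 on the log2(TPM + 1) scale, against -0.31 over all tested genes. The deepest falls were those of TPR, RANBP2, KPNA5, NUP107 and XPO1, which lost between 3.87-fold and 8.24-fold in mean TPM. RAN and RANGAP1 rose. Mean TPM was at most 0.5 of the DMSO level for 12 of the 38 (31.6%), against 29.8% of all tested genes, and no member doubled, against 3.54%. The groups did not overlap for 30 of the 38 (78.9%), against 75.3%. In bulk RNA, a change in how many cells express a gene cannot be told apart from a change in RNA per cell.

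**Figure D1:**
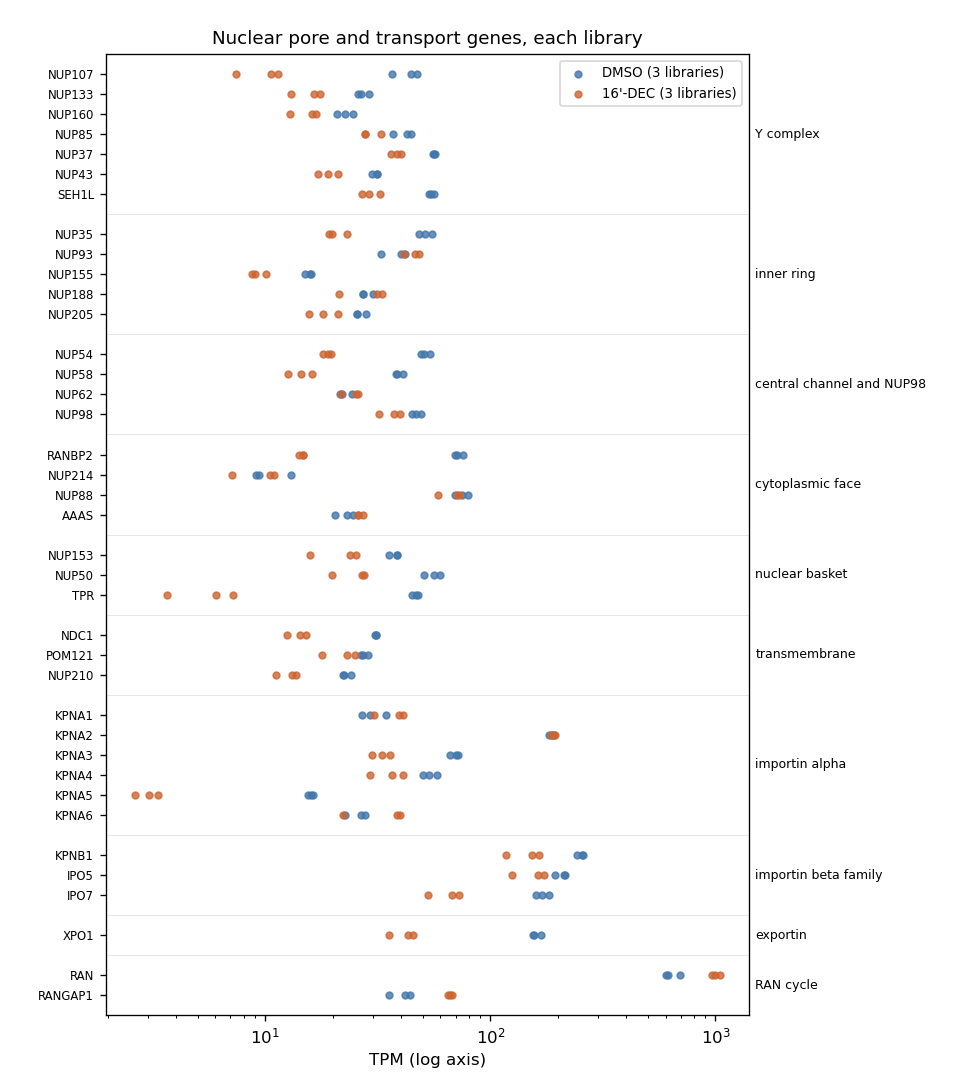
TPM of each gene in each library on a log axis, grouped by place in the pore or role in transport, with 1 point per library (blue DMSO, orange 16'-DEC). The points of TPR, RANBP2, KPNA5 and XPO1 separate widely, those of KPNA2 lie on each other, and RAN and RANGAP1 are the genes shifted clearly to the right.

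The libraries of a group were alike across genes (Pearson's r 0.982 to 0.989 within DMSO, 0.99 to 0.994 within 16'-DEC, 0.898 to 0.922 between groups). Fewer genes reached 1 TPM in the treated libraries, 13131 to 13459 against 14936 to 15118 in DMSO, with no overlap; its part in the results was not tested. Mitochondrially encoded genes took 10.7% to 12.8% of TPM in DMSO and 11.3% to 11.7% in the treated libraries, and a 2-sided exact permutation test of this difference gave p = 0.5, where 0.1 is the lowest it can give. Hepatocyte and hepatoma markers were present, with 6 of 6 tested and a summed level of 10378 to 10763 TPM in DMSO and 9341 to 9829 TPM with 16'-DEC. Within this sum AFP fell from 2721 to 965 TPM and ALB from 4931 to 4369 TPM, SERPINA1 rose from 2073 to 2921 TPM, APOA1 from 729 to 1203 TPM and HNF4A from 54.7 to 68.7 TPM, and TTR did not pass. The fall of ALB was near the threshold (-0.17, adjusted p = 0.0487, limma) and depends on settings described below. ALB was at 0.18 and not called with median-of-ratios scaling, lower with quantile normalization (-0.34) and called higher after the GC adjustment (0.77). AFP was at -1.50, and at -0.27 after the GC adjustment. The summed fibroblast and endothelial markers reached at most 0.614 and 0.745 TPM, and of the 5 immune markers CD3E and MS4A1 were listed at 0 in all libraries and PTPRC reached at most 1.17 TPM, while LYZ and CD68 had 1719 and 16.8 TPM in DMSO and 874 and 40.7 TPM with 16'-DEC. 16'-DEC replicate 3 had the lowest value of its group for 29 of the 38 genes (76.3%), against 57.9% of all tested genes. Without it 26 fell and 5 rose. Whether replicates came from separate cultures is not said in the labels, and the spread behind each p-value may therefore be technical.

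Changes in these libraries go with the GC content of the transcript, and this bears on the pore genes because 23 of the 38 have a GC content under 45%. Their median was 43.5%, against 48.8% over tested genes with a value. Among members under 40% GC, 8 of 9 fell, where 93.4% of all tested genes in that interval did. From 40% to 45%, 13 of 14 fell, against 79.7%, and from 45% to 50%, 3 of 6, against 50.8%. Above that, 1 of 4 fell from 50% to 55% (27.8% of all) and 2 of 5 from 55% to 60% (16.3% of all). The members' median changes in the first 3 intervals were -1.40, -0.78 and -0.26, beside -1.46, -0.86 and -0.33 over all tested genes. Spearman's rho between GC content and change was 0.641 across the 38 genes and 0.68 across 13291 genes, which share the same libraries.

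**Figure D2:**
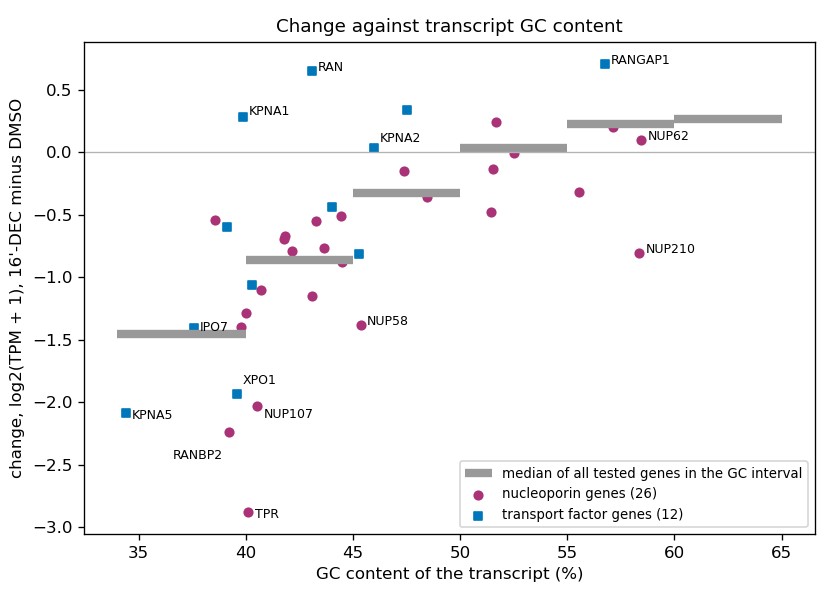
Change of each gene (vertical axis, log2(TPM + 1) scale, 16'-DEC minus DMSO) against the GC content of its transcript in percent, for 26 nucleoporin genes (circles) and 12 transport factor genes (squares), with the median of all tested genes in each GC interval as a grey bar. TPR, NUP107, NUP58 and NUP210 lie over 1 below the bar of their interval, and KPNA1 and RAN over 1 above it.

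Removing from each library a smooth dependence on GC content and transcript length left 13 of the 38 genes higher and 14 lower, with a median of 0.067, where 34.5% and 31.7% of all tested genes were called. This adjustment also re-centres each library. It removes any change shared by genes of like GC content and length, whatever the source, and that source was not tested. A gene called higher or lower after it is so relative to such genes. Of the 27 genes that had fallen, 14 stayed lower, 6 no longer passed and 7 were called higher. Scaling matters as well: median-of-ratios scaling shifted the median of all tested genes by 0.29 and quantile normalization by 0.41, and the members' median was then -0.29 and -0.30. With median-of-ratios scaling 9 members were higher and 21 lower, against 37.1% and 37.7% of all tested genes. With quantile normalization 8 were higher and 22 lower, against 42% and 33.3%. The calls of 14 genes were the same under all 17 alternatives tried: NUP107, SEH1L, NUP35, NUP54, NUP58, RANBP2, NUP50, TPR, NUP210, KPNA5, KPNB1 and XPO1 fell (12 genes), and RAN and RANGAP1 rose (2 genes). GC-adjusted changes stand beside the members below, and beside some genes of the further lists.

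**Figure D3:**
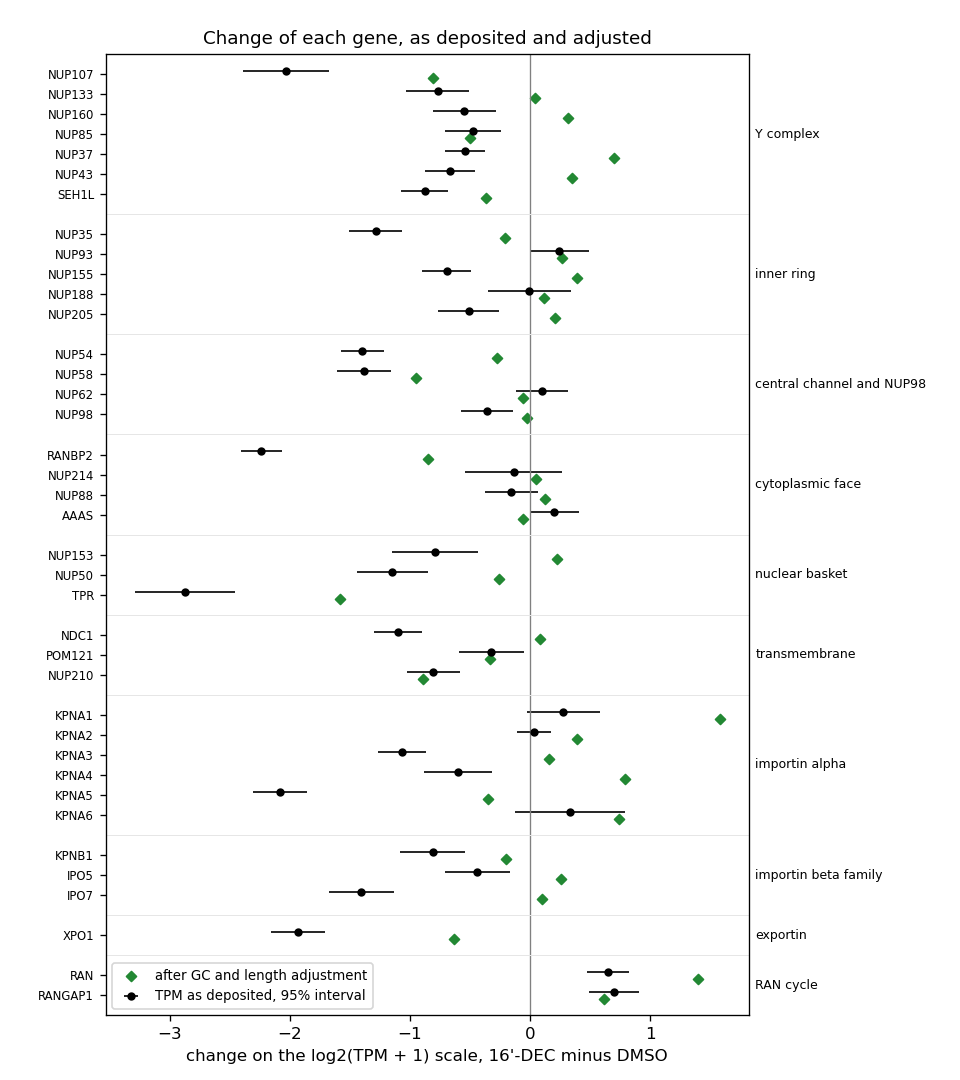
Change of each gene on the log2(TPM + 1) scale, 16'-DEC minus DMSO, for TPM as deposited (black points with 95% intervals from limma) and after the GC and length adjustment (green diamonds). The diamonds lie to the right of most black points, and TPR at -1.59, NUP58 at -0.95 and NUP210 at -0.89 are the lowest of the diamonds.

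The Y complex forms the outer rings of the pore scaffold, on both faces. The 7 genes grouped under it here all fell, where 48.9% of all tested genes did. Their changes ran from -2.03 to -0.48, with a median of -0.67. After the GC adjustment the median was 0.038 (3 higher, 3 lower, where 34.5% and 31.7% of all tested genes were called). NUP107, at the core of the complex, had 44.5, 36.4 and 47.3 TPM in the DMSO libraries and 10.6, 11.3 and 7.43 TPM with 16'-DEC. Every treated library was below every DMSO library, by a wide margin. The change was -2.03 ± 0.157 (SE, adjusted p = 4.57e-06, limma; -0.80 after GC adjustment). NUP85, another scaffold subunit, moved least, from 44.3, 36.9 and 42.6 TPM to 32.8, 27.7 and 27.8 TPM. Its groups were separate but close, and the change of -0.48 ± 0.102 (adjusted p = 0.00253, limma) failed the test under median-of-ratios scaling (-0.13) and under quantile normalization (-0.15). The GC adjustment left it lower and about as large (-0.50, adjusted p = 0.0027, limma). SEH1L, which the Y complex shares with a regulator of mTORC1, fell from 54.6 ± 1.37 to 29.4 ± 2.73 TPM (mean ± SD, n = 3, as below), a change of -0.88 (GC-adjusted -0.37). NUP133, NUP160, NUP37 and NUP43 fell by 0.77, 0.55, 0.54 and 0.67 on the log2 scale, but after the GC adjustment they were at 0.038, 0.31, 0.70 and 0.35, and the last 3 were then called higher. NUP160 did not pass with either scaling either (-0.22 and -0.11).

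The position of NUP107 among its partners shifted with it. In DMSO it was level with NUP85 within their spread, under NUP37 and SEH1L (42.8 ± 5.66 and 41.3 ± 3.85 TPM). With 16'-DEC it had the lowest level of these 7 genes, 9.8 ± 2.09 TPM, under NUP160 at 15.2 ± 2.11 TPM and NUP133 at 15.7 ± 2.35 TPM. NUP160 and NUP133 did not differ from each other beyond their spread. Of the 7, NUP37 had the highest mean in both groups, 56.1 ± 0.722 and 38.3 ± 2.05 TPM, but in DMSO it did not differ from SEH1L beyond their spread. The ratio of NUP37 to NUP107, taken within each library and therefore unchanged by any single factor per library, went from 1.26, 1.56 and 1.17 to 3.39, 3.54 and 5.19. The ranges of the groups are far apart, and the GC adjustment left the difference between the log2 changes of the pair nearly as it was (1.488 before, 1.501 after). No test was made on such ratios, for which 3 libraries against 3 allow no exact permutation p below 0.1.

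The inner ring joins the outer rings to the membrane and the channel. Of its 5 genes 3 fell and the other 2 missed the threshold; the median of -0.51 turned to 0.21 after the GC adjustment. NUP35, a membrane-binding subunit, had 51.4, 55.3 and 48.1 TPM in DMSO and 19.1, 23.0 and 19.7 TPM with 16'-DEC. All 3 treated libraries lay well under the controls (-1.29 ± 0.0956, adjusted p = 3.6e-06, limma; -0.21 after GC adjustment). NUP93, the linker that holds the ring together, had 32.8, 40.1 and 41.9 TPM in DMSO and 48.4, 46.1 and 41.5 TPM with 16'-DEC. The lowest treated library overlapped the highest control, and the change of 0.24 did not pass (adjusted p = 0.0701, limma, 95% interval -0.0024 to 0.49). It passed as higher with both scalings (0.59 and 0.54), after the GC adjustment (0.27), and without DMSO replicate 3 or 16'-DEC replicate 3. NUP188 and NUP205 are large paralogous scaffold proteins. NUP188 was at 28.1 ± 1.74 and 28.5 ± 6.29 TPM and took either sign depending on the setting (0.12 after the GC adjustment), while NUP205 fell by 0.51 but was at 0.21 after the GC adjustment and did not pass with either scaling. NUP155 fell by 0.69 and was called higher (0.39) after the GC adjustment. The ratio of NUP93 to NUP35 went from 0.638, 0.725 and 0.87 in DMSO to 2.53, 2.01 and 2.10 with 16'-DEC; the log2 changes of the pair differed by 1.53, and by 0.47 after the GC adjustment.

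NUP54, NUP58 and NUP62 form the trimer that lines the central channel, and their transcripts did not move alike. NUP54 had 50.7, 53.7 and 49.2 TPM in DMSO and 18.01, 19.53 and 18.97 TPM with 16'-DEC. The treated libraries were close to each other and far under the controls (-1.40 ± 0.0771, adjusted p = 6.68e-07, limma; -0.28 after GC adjustment). NUP58 fell from 39.1 ± 1.43 to 14.4 ± 1.77 TPM, and its change of -1.39 was still -0.95 after the GC adjustment. NUP62 had 21.5, 21.9 and 24.2 TPM in DMSO and 25.9, 25.2 and 21.7 TPM with 16'-DEC, and the groups overlapped. Its change of 0.10 did not pass (adjusted p = 0.362, limma, 95% interval -0.12 to 0.32), although both scalings put it higher (0.44 and 0.50) and the GC adjustment turned it to -0.059. Within each library the ratio of NUP62 to NUP54 was 0.425, 0.407 and 0.492 in DMSO and 1.44, 1.29 and 1.14 with 16'-DEC, so NUP62 went from the lower to the higher of the pair. Their log2 changes differed by 1.496, and by 0.22 after the GC adjustment.

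NUP98, a gene that encodes a mobile repeat protein found on both faces of the pore, had 44.6, 46.8 and 49.0 TPM in DMSO and 39.8, 37.3 and 32.1 TPM with 16'-DEC. The groups were separate, and the change of -0.36 ± 0.0945 passed (adjusted p = 0.00781, limma). Median-of-ratios scaling brought it to -0.015, quantile normalization to -0.064 and the GC adjustment to -0.021, and it passed with none of these.

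On the cytoplasmic face, RANBP2 fell and the other 3 genes did not pass. RANBP2 encodes NUP358, the giant filament protein that binds RAN and holds RANGAP1, in its SUMO-modified form, at the pore. It had 70.8, 75.9 and 69.8 TPM in DMSO and 14.7, 14.7 and 14.1 TPM with 16'-DEC. The treated libraries were almost level with each other, and the mean was 4.98-fold lower (-2.24 ± 0.0747, adjusted p = 1.17e-07, limma; -0.85 after GC adjustment). AAAS (aladin) had 20.3, 24.6 and 23.2 TPM in DMSO and 25.8, 27.1 and 25.7 TPM with 16'-DEC. The groups did not overlap, but the change of 0.20 did not pass (adjusted p = 0.0712, limma), and it was at -0.059 after the GC adjustment. Median-of-ratios scaling (0.54) and quantile normalization (0.60) put AAAS higher, as did leaving out DMSO replicate 2 (0.26, adjusted p = 0.0439, limma). NUP88 and NUP214, which dock the messenger RNA export machinery, were at 74.8 ± 4.82 and 67.3 ± 7.52 TPM and at 10.5 ± 2.17 and 9.48 ± 2.09 TPM, with changes of -0.15 and -0.13 that did not pass. Both were above 0 under either scaling and after the GC adjustment (0.13 and 0.050), and missed the threshold there too.

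RANBP2 has near copies, the RGPD genes, and reads could be divided between them in ways the table does not show. The 7 RGPD genes summed to 31.2, 28.9 and 26.9 TPM in DMSO and to 9.99, 8.6 and 6.52 TPM with 16'-DEC. Both RANBP2 and the sum of its copies were lower in every treated library. RANBP2 spans bases 108719481 to 108785811 of chromosome 2 on the forward strand (ENSG00000153201; GRCh38, GENCODE 29, as for all gene positions), and its reference transcript has 29 exons and 11711 bases.

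The nuclear basket projects into the nucleus, and all 3 of its genes measured here fell. TPR, the coiled-coil protein that makes up the basket filaments, showed the deepest fall of the 38 genes. It had 44.9, 46.6 and 47.8 TPM in DMSO and 7.18, 6.06 and 3.66 TPM with 16'-DEC. The groups lay far apart, with the mean 8.24-fold lower (-2.88 ± 0.182, adjusted p = 1.42e-06, limma). After the GC adjustment the change was -1.59, still the largest fall among the members. TPR (ENSG00000047410) lies on the reverse strand of chromosome 1 from 186311652 to 186375693, with 51 exons in its reference transcript. NUP153, which anchors the basket to the pore, had 38.4, 35.3 and 38.5 TPM in DMSO and 23.7, 25.3 and 15.8 TPM with 16'-DEC. The groups were separate (-0.79 ± 0.156, adjusted p = 0.0016, limma), but the value was 0.22 after the GC adjustment and did not pass. NUP50, a basket protein that helps importin alpha release cargo, fell from 55.5 ± 4.73 to 24.7 ± 4.28 TPM (-1.15, GC-adjusted -0.26). The ratio of NUP50 to TPR went from 1.34, 1.09 and 1.17 in DMSO to 3.75, 4.53 and 5.41 with 16'-DEC (a difference in log2 change of 1.73, GC-adjusted 1.32).

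All 3 transmembrane nucleoporin genes fell, with a median of -0.80. NDC1, which ties the scaffold to the membrane, had 31.2, 30.7 and 31.2 TPM in DMSO and 14.3, 15.1 and 12.5 TPM with 16'-DEC. The controls were nearly identical and all treated libraries less than 0.5 of them (-1.10 ± 0.0886, adjusted p = 5.89e-06, limma), but the GC-adjusted value was 0.083. NUP210, a large lumenal nucleoporin with a GC content of 58.3%, fell from 22.8 ± 1 to 12.7 ± 1.31 TPM, and here the adjusted change of -0.89 was larger than the unadjusted -0.80. POM121 had 27.2, 28.7 and 26.6 TPM in DMSO and 24.9, 23.1 and 17.9 TPM with 16'-DEC. Its call depends on the setting: the change of -0.32 ± 0.119 had an adjusted p of 0.0366 (limma), failed in 5 of the 6 fits without a library (adjusted p up to 0.101), and was at 0.016 and 0.078 with the 2 scalings. After the GC adjustment POM121 was lower by the same measure (-0.33, adjusted p = 0.00246, limma). Its near-identical copy POM121C had 29.8, 27.5 and 29.7 TPM in DMSO and 25.2, 22.1 and 16.7 TPM with 16'-DEC, and reads of the pair cannot be separated with certainty.

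Importin alpha proteins bind the classical nuclear localization signal and hand the cargo to importin beta. The 6 genes fall into families that share cargo preferences, KPNA1, KPNA5 and KPNA6 in the first, KPNA3 and KPNA4 in the second, and KPNA2 in the third. Of the 6, 3 fell and the other 3 missed the threshold, with a median of -0.28 (0.064 and -0.11 with the 2 scalings, 0.57 after the GC adjustment). KPNA5 fell deepest, from 16.4, 15.5 and 15.9 TPM in DMSO to 3.33, 3.04 and 2.63 TPM with 16'-DEC. The controls agreed closely and the treated libraries had a mean 5.31-fold lower (-2.08 ± 0.0995, adjusted p = 3.3e-07, limma; -0.35 after GC adjustment). KPNA5 (ENSG00000196911, chromosome 6, 116681187 to 116741866, forward strand) has the lowest GC content of the 38 genes, 34.4%.

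The closest relatives of KPNA5 did not fall. KPNA6 had 26.7, 22.6 and 27.7 TPM in DMSO and 39.8, 38.6 and 22.2 TPM with 16'-DEC. The third treated library lay apart from the other two and under all controls, and the change of 0.33 ± 0.202 did not pass (adjusted p = 0.165, limma). Without that library KPNA6 passed as higher (0.60, adjusted p = 0.00117, limma), as it did with both scalings (0.67 and 0.71) and after the GC adjustment (0.74). KPNA1 had 29.3, 26.8 and 34.4 TPM in DMSO and 41.1, 39.4 and 30.4 TPM with 16'-DEC. The groups overlapped, and its change of 0.28 missed the threshold (adjusted p = 0.0883, limma). It passed as higher with both scalings (0.62 in each), without DMSO replicate 3 or 16'-DEC replicate 3, and after the GC adjustment, where its value of 1.58 was the largest rise of the 38. A transcript on the opposite strand of KPNA1, AC083798.2, had 11.1 and 9.88 TPM, and without strand information reads of the 2 cannot be told apart.

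KPNA2, the importin alpha of proliferating cells and the most abundant of the 6, had 188, 190 and 182 TPM in DMSO and 191, 194 and 186 TPM with 16'-DEC. The groups overlapped, and the 95% interval of the change ran from -0.11 to 0.17 (limma, adjusted p = 0.671). Median-of-ratios scaling and the GC adjustment put it higher, at 0.38 and 0.40, while quantile normalization did not (0.10). KPNA3 fell from 69.4 ± 3.08 to 32.8 ± 3.04 TPM and its close relative KPNA4 from 53.9 ± 3.82 to 35.6 ± 6.07 TPM (-1.06 and -0.60). Both were also lower with median-of-ratios scaling (-0.72 and -0.25) and quantile normalization (-0.79 and -0.32). After the GC adjustment both were called higher (0.16 and 0.79), that is, relative to genes of like GC content and length.

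As shares of the summed importin alpha TPM, which no single factor per library can alter, KPNA2 made up 48.3%, 50.4% and 48.0% in the DMSO libraries and 55.5%, 55.2% and 62.0% with 16'-DEC. KPNA5 went from 4.21%, 4.12% and 4.19% to 0.966%, 0.862% and 0.877%, and KPNA3 from 18.2% ± 0.827 to 9.85% ± 0.315. KPNA1 and KPNA6 took larger shares, 7.92% ± 1.03 to 11.1% ± 0.887 and 6.72% ± 0.662 to 9.97% ± 2.23. The sum itself was 389, 377 and 379 TPM in DMSO and 345, 352 and 300.0 TPM with 16'-DEC. KPNA2 thus took a larger share in every treated library than in any control, and KPNA3, KPNA4 and KPNA5 a smaller one. In fitted changes KPNA1 (0.28) and KPNA6 (0.33) were above KPNA2 (0.031) before the GC adjustment, and KPNA4 (-0.60) was under it. After the adjustment KPNA1 (1.58), KPNA4 (0.79) and KPNA6 (0.74) were all above KPNA2 (0.40), so KPNA4 changed place with KPNA2.

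**Figure D4:**
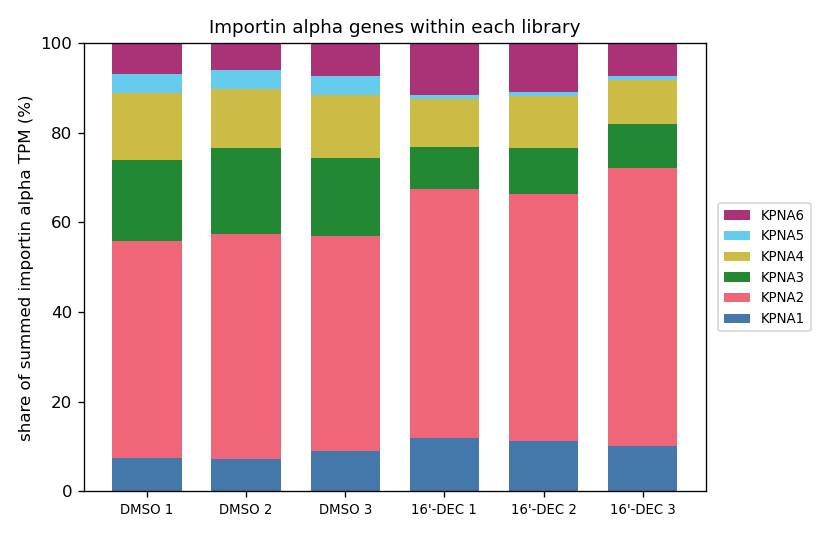
Share of each importin alpha gene in the summed importin alpha TPM of a library, in percent, with 1 stacked bar per library. The KPNA2 band is wider in the 3 treated libraries (55.2% to 62.0%, against 48.0% to 50.4%), and the KPNA5 band narrows from 4.12% or more to 0.966% or less; the shares are of TPM as deposited, without the GC adjustment.

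The 3 genes of the importin beta family all fell. KPNB1 (importin beta, the carrier that importin alpha works with) had 256, 244 and 258 TPM in DMSO and 153, 165 and 117 TPM with 16'-DEC. The groups were well separated (-0.81 ± 0.119, adjusted p = 2.66e-04, limma; -0.20 after GC adjustment). IPO7, an importin for ribosomal proteins among other cargo, fell further, from 181, 160 and 170 TPM to 67.4, 72.7 and 52.6 TPM. That change of -1.40 ± 0.119 (adjusted p = 8.11e-06, limma) was at 0.10 after the GC adjustment. IPO5, also a carrier of histones and ribosomal proteins, had 214, 195 and 211 TPM in DMSO and 164, 173 and 125 TPM with 16'-DEC. The gap between the groups was narrow (-0.44 ± 0.118, adjusted p = 0.0089, limma), and IPO5 failed the test under median-of-ratios scaling (-0.087) and was called higher after the GC adjustment (0.26).

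XPO1 (CRM1) is the main exportin for proteins with a leucine-rich export signal. It had 168, 155 and 156 TPM in DMSO and 43.0, 45.4 and 35.5 TPM with 16'-DEC. No library came near those of the other group (-1.93 ± 0.0988, adjusted p = 4.59e-07, limma; -0.63 after GC adjustment). XPO1 (ENSG00000082898) lies on the reverse strand of chromosome 2 from 61477849 to 61538626. In DMSO it was the sixth most abundant of the 38 genes, and with 16'-DEC the ninth. The ratio of KPNB1 to XPO1 within a library went from 1.52, 1.57 and 1.65 to 3.57, 3.63 and 3.30, so the exportin transcript fell further than that of the importin, by 1.12 on the log2 scale and by 0.43 after the GC adjustment.

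The RAN cycle genes were the members called higher. RAN had 601, 614 and 695 TPM in DMSO and 1043, 961 and 994 TPM with 16'-DEC. It was the most abundant of the 38 genes in both groups, and all treated libraries were above all controls (0.65 ± 0.0756, adjusted p = 6.02e-05, limma; 1.40 after GC adjustment). RANGAP1, the activator of RAN's GTPase, had 35.4, 41.8 and 44.0 TPM in DMSO and 67.68, 64.70 and 66.03 TPM with 16'-DEC. These groups too were separate (0.70 ± 0.0921, adjusted p = 1.29e-04, limma; 0.62 after GC adjustment). RAN (ENSG00000132341) lies on chromosome 12 from 130871879 to 130877678, forward strand, and RANGAP1 (ENSG00000100401) on chromosome 22 from 41245611 to 41286251, reverse strand.

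The balance between RAN cycle genes and their partners shifted as well. These pairs were chosen after the values were seen, and their ratios restate the changes of the single genes. Within each library, RAN stood to XPO1 at 3.57, 3.96 and 4.44 in DMSO and at 24.25, 21.19 and 27.99 with 16'-DEC, a 6.13-fold larger mean ratio. RANGAP1 stood to RANBP2, its anchor at the pore, at 0.5, 0.55 and 0.63 in DMSO and at 4.61, 4.40 and 4.69 with 16'-DEC. That mean ratio was 8.14-fold larger, with RANGAP1 the less abundant transcript in every control and the more abundant in every treated library. AAAS, which shares the cytoplasmic face with RANBP2, stood to it at 0.287, 0.324 and 0.331 and then at 1.76, 1.84 and 1.82. The GC adjustment reduced these differences: in fitted changes RAN over XPO1 was 6.00-fold larger before and 4.08-fold larger after it, RANGAP1 over RANBP2 7.68-fold and 2.77-fold, and AAAS over RANBP2 5.43-fold and 1.73-fold.

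**Figure D5:**
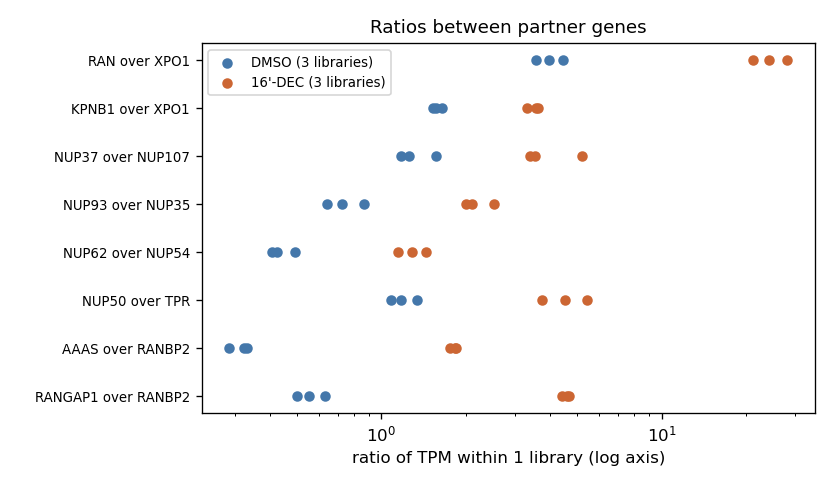
Ratio of TPM between partner genes within a library, on a log axis, with 1 point per library (blue DMSO, orange 16'-DEC). In all 8 pairs shown the treated libraries lie to the right of the controls, most of all for RANGAP1 over RANBP2 and RAN over XPO1. The pairs were chosen after the values were seen, so their shared direction carries no further weight. The ratios are of TPM as deposited, without the GC adjustment.

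RANGAP1 and RANBP2 moved in opposite directions, so the bases just upstream of their starts are printed, 5′ to 3′ on the gene's own strand and outside every GENCODE 29 exon (RefSeq promoter table, GRCh38.p14). The RANBP2 stretch is chr2:108719232-108719480, forward strand, and the RANGAP1 stretch chr22:41286252-41286437, reverse strand. Capitals mark matches, on either strand, to the letters CCAAT, to the GC box GGGCGG, to the ETS-type site CCGGAAG or to TGACNNNGC, the core of an antioxidant response element.
RANBP2: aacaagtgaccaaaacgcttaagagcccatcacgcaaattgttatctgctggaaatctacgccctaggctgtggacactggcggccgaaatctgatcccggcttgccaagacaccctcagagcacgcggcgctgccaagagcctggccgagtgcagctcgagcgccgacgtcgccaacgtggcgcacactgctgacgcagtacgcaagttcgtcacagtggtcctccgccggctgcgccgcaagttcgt
RANGAP1: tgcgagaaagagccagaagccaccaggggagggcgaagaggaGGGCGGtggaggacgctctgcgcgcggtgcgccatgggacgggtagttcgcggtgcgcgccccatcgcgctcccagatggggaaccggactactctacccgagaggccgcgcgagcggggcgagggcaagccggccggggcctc
The RANGAP1 stretch holds 1 match, a GC box, and the RANBP2 stretch none of the 4. Their GC contents were 72.6% and 60.6%, beside 56.8% and 39.2% in the transcripts. RANGAP1 has another listed start further upstream, whose window is the one counted next.

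The promoter table held 34 of the 38 genes. In the 250 bases before the first listed start, the CCAAT letters were found in 13 of the 34 (38.2%), against 35.6% of 10011 tested genes with an entry. The GC box was found in 17 (50%, against 67.4%), the ETS-type letters in 11 (32.4%, against 17.1%) and the antioxidant letters in 7 (20.6%, against 12.3%). Of the 11 genes with the ETS-type letters, all are nucleoporins: NUP107, NUP160, NUP214, NUP35, NUP37, NUP50, NUP54, NUP58, NUP88, POM121 and SEH1L. Nucleoporins are 26 of the 38 members, so most genes counted here are of this kind, and the difference from the transport factors was not tested. The median GC content of these windows was 62.6% in members and 64.8% in tested genes. A match of letters is a description of the sequence and no evidence that a factor binds there.

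Other genes of the pathway moved in both directions, in 6 further lists. Of 76 genes, 74 were tested, and of these 23 rose and 35 fell, with a median of -0.22. These are 31.1% and 47.3%, beside the 22.7% and 48.9% over all tested genes. With median-of-ratios scaling 36 were higher and 25 lower (median 0.12), where 37.1% and 37.7% of all tested genes were called. Among other nucleoporins 2 of 8 rose and 5 fell. The 5 include a gene at 2.60 ± 0.54 TPM in DMSO and 0.503 ± 0.0864 TPM with 16'-DEC. It met the filter of 1 TPM only through the DMSO libraries, where it was high, so its call carries no weight. With the filter of 5 TPM 4 fell. SEC13, a Y complex subunit also used in COPII coats, rose from 145 ± 10.5 to 286 ± 6.7 TPM. RAE1, an export factor, rose from 36 ± 1.97 to 51.5 ± 2.19 TPM. AHCTF1 (ELYS), which seeds pores on chromatin, fell from 30.7 ± 1.4 to 8.37 ± 1.12 TPM, and NUP42 from 39 ± 1.55 to 14.7 ± 1.5 TPM. Their changes were -1.77 and -1.36, and -0.40 and -0.76 after the GC adjustment. SEC13 was therefore called higher (0.98 on the log2 scale) where all 7 genes grouped under the Y complex in the main list were called lower. This contrast holds for TPM as deposited. After the GC adjustment SEC13 was at 0.77, and NUP37 (0.70), NUP43 (0.35) and NUP160 (0.31) were called higher as well.

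Among 16 other importins and exportins 3 rose and 7 fell (18.8% and 43.8%, beside 22.7% and 48.9% over all tested genes). Their median was -0.24, but 0.083 and 0.12 with the 2 scalings and 0.074 after the GC adjustment. CSE1L, the exportin that returns importin alpha to the cytoplasm, fell from 160 ± 7.66 to 43.6 ± 4.71 TPM, a change of -1.85 (GC-adjusted -0.56) beside the -1.93 of XPO1. IPO11 fell by 1.21 but was at 0.092 after the GC adjustment. KPNA7, an importin alpha of early embryos, is counted among the 3, at 0.611 ± 0.11 TPM in DMSO and 1.69 ± 0.192 TPM with 16'-DEC. It met the filter of 1 TPM only through the treated libraries, where it was high, so its call carries no weight. SNUPN, the import adaptor of spliceosomal particles, rose by 0.29 but did not pass in 3 of the fits without a library. Among 5 other RAN cycle factors 3 rose and 1 fell (60% and 20%). NUTF2, which brings RAN-GDP back into the nucleus, rose from 95.6 ± 8.36 to 150 ± 3.87 TPM, and RANGRF rose by 0.62, while RANBP1, a partner of RANGAP1, fell by 0.36. RANBP1 was at -0.010 and not called under median-of-ratios scaling, but was called lower under quantile normalization (-0.28) and after the GC adjustment (-0.34).

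Among 18 messenger RNA export genes 7 rose and 6 fell, with a median of 0.050 (38.9% and 33.3%, beside 22.7% and 48.9% over all tested genes). The split moved to 12 and 5 with median-of-ratios scaling (median 0.39), 11 and 5 under quantile normalization (0.42) and 10 and 5 after the GC adjustment (0.17). Calls over all tested genes moved too, to 37.1%, 42% and 34.5% higher and 37.7%, 33.3% and 31.7% lower in these settings. ALYREF, the export adaptor, and the helicase DDX39A rose by 0.77 each, while THOC2 and THOC1, subunits of the THO complex that loads such adaptors, fell from 98.2 ± 1.62 to 18.1 ± 0.581 TPM and from 40.2 ± 1.74 to 8.74 ± 0.448 TPM (GC-adjusted -0.94 and -0.92). In the lamina and envelope list 5 of 15 tested genes rose and 8 fell (33.3% and 53.3%). Their median was -0.21, but 0.13 and 0.095 with the 2 scalings. LMNA (lamins A and C) rose from 112 ± 13.2 to 232 ± 6.44 TPM, while LMNB1 (lamin B1) fell from 72.6 ± 2.19 to 19.5 ± 2.27 TPM and TMPO, a lamina-binding protein, from 119 ± 1.22 to 28.2 ± 2.39 TPM. After the GC adjustment LMNB1 and TMPO were still at -1.59 and -1.08 and LMNA at 0.83. LEMD2, an inner membrane protein, rose by 0.49.

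The SUMO pathway modifies RANGAP1 and uses RANBP2 as a ligase. Of its 12 genes 3 rose and 8 fell (25% and 66.7%, beside 22.7% and 48.9% over all tested genes). The median was -0.64, and 0.036 after the GC adjustment. SAE1, a subunit of the activating enzyme, rose by 0.44. SENP6 and SENP7, proteases that trim SUMO chains, fell by 2.30 and 2.10 (GC-adjusted -1.52 and -0.46). After the GC adjustment 3 genes of this list were higher and 3 lower, where 34.5% and 31.7% of all tested genes were called.

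By abundance RAN led the 38 genes in both groups, IPO5 kept its place, and most other leading genes changed theirs. KPNB1, IPO5, KPNA2 and IPO7 followed in DMSO at 253 ± 8.06, 207 ± 10.6, 187 ± 3.99 and 170 ± 10.9 TPM, and IPO7 and XPO1 (160 ± 7.27) did not differ beyond their spread. With 16'-DEC, KPNA2 came next to RAN at 191 ± 4.29 TPM, and IPO5 and KPNB1 (154 ± 25.3 and 145 ± 24.9) could not be ordered. RANBP2 went from rank 8 to 30 and TPR from 17 to 37, while RANGAP1 went from 20 to 6 and NUP93 from 22 to 8. The 26 nucleoporins together had 985, 988 and 1014 TPM in DMSO and 601, 626 and 546 TPM with 16'-DEC, and all 38 genes together 0.277% to 0.293% of TPM in DMSO and 0.224% to 0.248% with 16'-DEC.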

How the data were processed

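Poly(A) RNA of 6 Huh7 libraries, 3 per group, was grouped by title. The authors deposited 1 table of TPM. Tools named in the submitters' processing notes are HISAT2 2.0.1, HTSeq 0.6.1, cutadapt 1.9.1 and DESeq2, with the build GRCh38; their roles, the annotation and any use of strand are not stated there. TPM keep no depth, so the depth of each library is unknown, and each value depends on all other genes. No pair of libraries shared over 0.0697% identical values at 1 TPM or more, so none was a duplicate.

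The 2-sided test was limma's (version 3.58.1, R 4.3.3; eBayes with trend) on log2(TPM + 1), which understates changes of low genes, for genes averaging 1 TPM or more, with Benjamini-Hochberg adjustment over all of them and a threshold of 0.05. The fit was also run on simulated data with independent noise and few changed genes. Such data lack the GC trend seen here, so that run cannot check the calls made in these libraries. GC content and length came from GENCODE 29 (1 transcript per gene: APPRIS principal, then basic, then longest; 93.1% of tested genes), and the adjustment removed natural splines (5 degrees of freedom each) from each library's deviations. Also varied were the pseudocount (0.1, 5), the filter (none, 5 TPM), the scaling (median-of-ratios, quantile normalization), the replicate block, the mean trend, the threshold (0.01) and the libraries, each left out in turn.

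Values in every library are given for the highest and lowest change in each role group and for NUP98, KPNA2, KPNB1, XPO1, RAN and RANGAP1; of each further list, up to 2 genes of smallest adjusted p per direction. 1 gene that this rule names is not reported here. The members, lists, rules and the adjustment were chosen with earlier results of these data known. Pairs for ratios, motifs and printed stretches were chosen after the values were seen. Of the 38 genes, 26 overlap another annotated gene, and for 6 that gene had at least 5 TPM in a group (KPNA1, NUP188, NUP43, NUP62, NUP88, NUP98), so their reads may be shared. Plots used matplotlib 3.10.9 (Python 3.11.15).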

Additional observations from a re-analysis of the deposited data

How the results depend on the processing

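Of the 38 genes, 14 kept direction and call under all 17 alternatives. The 27 lower genes numbered 14 after the GC and length adjustment, alone or with the replicate block, and 21 to 27 otherwise; the 2 higher genes numbered 9 under median-of-ratios scaling, 8 under quantile normalization, 13 after the GC adjustment and 13 with the replicate block beside it. Leaving out each library gave 2 to 5 higher (4 without DMSO replicate 3, 5 without 16'-DEC replicate 3) and 26 to 27 lower. In the further lists 36 were higher with median-of-ratios scaling (23 as reported), and 22 were lower after the GC adjustment and 19 with the block beside it (35 as reported); leaving out each library gave 18 to 26 higher and 32 to 34 lower. The cause of these shifts was not tested.

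After the GC adjustment, with and without the block, the sign turned for NUP133 (0.0383), NUP160 (0.31), NUP37 (0.70), NUP43 (0.35), NUP155 (0.39), NUP188 (0.12), NUP205 (0.21), NUP62 (-0.0592), NUP214 (0.0501), NUP88 (0.13), AAAS (-0.0591), NUP153 (0.22), NDC1 (0.083), KPNA3 (0.16), KPNA4 (0.79), IPO5 (0.26), IPO7 (0.10) and IPO11 (0.0921). With median-of-ratios scaling and quantile normalization it turned for NUP188 (0.34 and 0.37), NUP214 (0.18 and 0.35), NUP88 (0.19 and 0.0758) and POM121 (0.0159 and 0.0778). NUP188 and NUP214 also turned without DMSO replicate 3 (0.0447 and 0.016) and without 16'-DEC replicate 3 (0.185 and 0.0422), their ranges over the libraries left out being -0.118 to 0.185 and -0.236 to 0.0422. Among the hepatocyte and hepatoma markers, ALB turned after the GC adjustment (0.77) and with median-of-ratios scaling (0.18).

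The replicate numbers are shared between the groups, but same-numbered libraries did not deviate together (correlations of 0.0941, -0.182 and -0.0726 across genes), and not every library correlated best with its own number. With the replicate block 2 of the 38 genes were higher and 27 lower, and 18 and 34 of the further lists. Depth is unknown from TPM, so its limit on low genes could not be given.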
